A study of Rattus norvegicus with 12 samples.

Results

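Epididymal fat pads of rats differed in how much epithelial RNA they yielded, and 8 of the 12 arrays of the series were set in 2 classes on that account, chosen by their levels of epithelial transcripts such as Epcam. Replicates 2 and 4 of the calorically restricted (CR) and of the transgenic (Tg) rats form the epithelium-high class, 4 arrays named CR2, CR4, Tg2 and Tg4. Replicates 1 and 3 of the same groups form the epithelium-low class, 4 arrays named CR1, CR3, Tg1 and Tg3. Every difference between the classes is therefore a description and carries no test. The 4 arrays of rats fed ad libitum (AL1 to AL4) lie outside the rule and serve as arrays it did not use.

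Total RNA from epididymal white adipose tissue, isolated with TRIZOL, was measured on 12 Affymetrix rat arrays, each labelled as its own biological replicate of 3 groups of 4. CR rats were wild Wistar rats held to 70% of the energy intake from 6 weeks of age. Tg rats were heterozygous dwarf rats with an anti-sense GH transgene (GH is growth hormone); they too ate ad libitum. AL rats were wild Wistar rats fed ad libitum. Animals of the 3 groups were killed at 24 weeks of age, after the lights came on, having been fed 30 minutes before the lights went off the evening before. The genotype label reads Jcl:Wistar (-/-) on all 12 arrays, Tg included, so the Tg group rests on titles and source names. A code in the sample descriptions is the same for all arrays of a group and another for each group. Whether it stands for a batch is not stated, and such a batch and the group cannot be told apart.

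The epididymal fat pad lies against the epididymis, a coiled duct that carries sperm away from the testis. The efferent ducts, lined by absorptive and ciliated cells, join the testis to it. The duct wall holds principal cells, which absorb and secrete, clear or narrow cells, which acidify the lumen with V-ATPase, and basal cells beneath them. Adipose tissue itself has no ducts, although its surface is covered by mesothelium, which expresses simple keratins too.

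Levels below are log2 of the deposited series matrix value, and differences are on that log2 scale. Each gene is shown by its brightest probe set. Column medians of the matrix lay between 222.6 and 239.4. CR3 stood apart technically, with 5.71% blank probes against 0.325% to 1.89% on the other 11 arrays, and with a background of 58.5 scanner units against 34.5 to 44.1. Other tissues showed on single arrays. The exocrine pancreas list (digestive enzymes, 13 genes measured) averaged 12.63 on Tg1 and 6.62 to 7.17 elsewhere, and the caput epididymis list (7 genes) averaged 11.06 on CR4 and 5.91 to 6.90 elsewhere. The spermatid list (13 genes, among them the protamines) averaged 11.58 on Tg2, 10.01 on CR1, 11.24 on AL1 and 12.43 on AL2, and 6.35 to 7.67 on the other 8 arrays. High spermatid list means therefore lay on arrays of both epithelial classes. All 13 genes still had a positive difference, epithelium-high minus epithelium-low (median 0.56). The list's median difference was 2.56 within Tg and −1.11 within CR. In bulk RNA of this kind, fewer cells of a type and less RNA per cell cannot be told apart.

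The marker genes of the classes are Epcam, an epithelial adhesion molecule, and Krt19, a keratin of simple epithelia. Epcam stood at 11.93 on CR2, 11.76 on CR4, 11.92 on Tg2 and 12.28 on Tg4, against 5.78 on CR1, 6.57 on CR3, 7.11 on Tg1 and 9.31 on Tg3. The classes did not overlap, and the pair nearest the divide were CR4 inside it and Tg3 outside it. The difference was 4.78, or 27.4-fold, from a mean of 11.97 ± 0.22 on the epithelium-high arrays and 7.20 ± 1.51 on the epithelium-low arrays (SD, n = 4 each). Krt19 stood at 12.09 on CR2, 11.79 on CR4, 12.16 on Tg2 and 12.23 on Tg4, against 10.08 on CR1, 8.60 on CR3, 10.02 on Tg1 and 10.23 on Tg3. Krt19 was thus well expressed on the epithelium-low arrays as well, and its difference was 2.34. Krt8 and Krt18, its usual keratin partners, differed by 2.52 and 2.84, while Krt5, a keratin of basal cells, differed by 0.11.

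**Figure D1:**
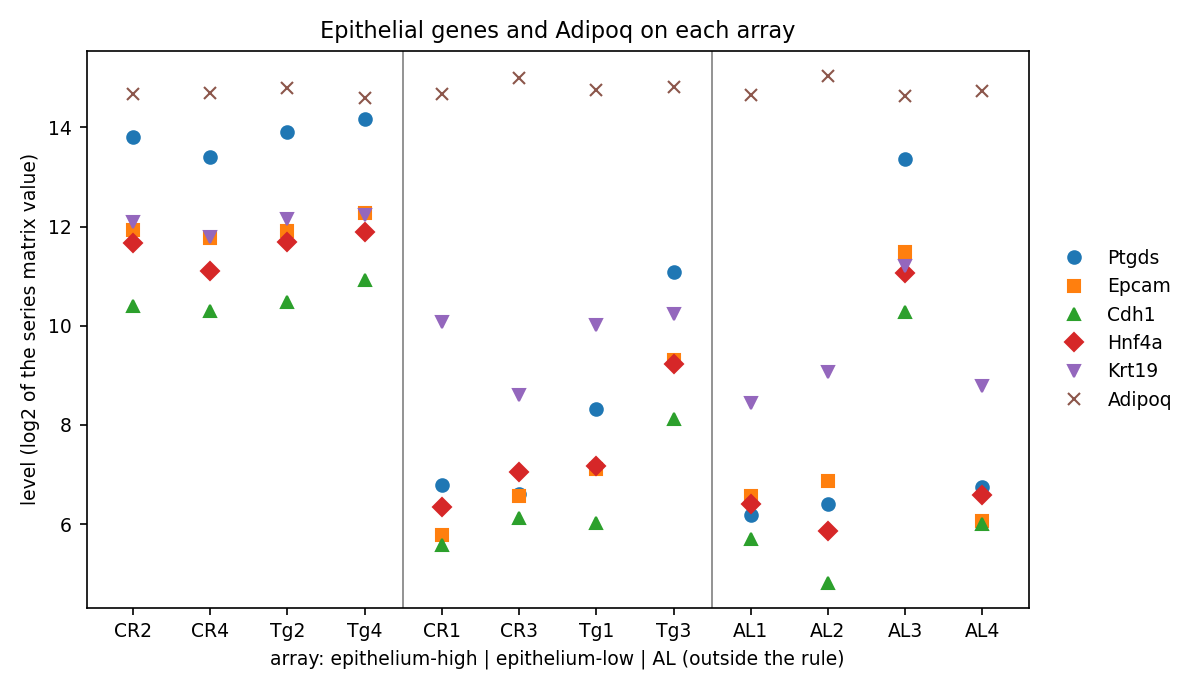
Level (log2 of the series matrix value, y axis) of 5 epithelial genes and of Adipoq on each of the 12 arrays (x axis), 1 point per array and gene, with vertical lines between epithelium-high, epithelium-low and AL arrays. Epcam lies between 11.76 and 12.28 on the 4 epithelium-high arrays and reaches 9.31 on Tg3 and 11.48 on AL3, while Adipoq stays between 14.59 and 15.04 on every array.

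Promoters of 4 genes with large differences are shown, because they hold the motif found in the most promoters of the counted genes. They were picked for holding it. Of the 15 genes leading the higher count, 12 had a promoter in the RefSeq table, and 5 of these held a searched motif. The motif shown is the shortest of those searched, and shorter letters match more often. Each is the 250 bases before the RefSeq transcription start on build GRCr8, written 5′ to 3′ on the gene's strand. Capitals mark CACCTG or its reverse complement CAGGTG, an E-box form bound by zinc-finger and helix-loop-helix factors. Epcam lies at chr6:12649679-12649928 (minus strand), Cd24 at chr20:48656227-48656476 (plus strand), Slc44a4 at chr20:3923855-3924104 (minus strand) and Dcdc2 at chr17:40458791-40459040 (minus strand).
Epcam: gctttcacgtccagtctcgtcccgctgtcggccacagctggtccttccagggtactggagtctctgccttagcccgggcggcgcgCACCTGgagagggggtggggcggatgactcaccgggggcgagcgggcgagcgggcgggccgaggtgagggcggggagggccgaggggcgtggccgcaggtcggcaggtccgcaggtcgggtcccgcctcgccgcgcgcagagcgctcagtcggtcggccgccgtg
Cd24: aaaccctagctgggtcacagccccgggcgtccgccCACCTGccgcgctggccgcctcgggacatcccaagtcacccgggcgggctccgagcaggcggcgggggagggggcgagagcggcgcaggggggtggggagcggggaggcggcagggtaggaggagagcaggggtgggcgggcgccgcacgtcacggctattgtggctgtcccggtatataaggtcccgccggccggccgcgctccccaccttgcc
Slc44a4: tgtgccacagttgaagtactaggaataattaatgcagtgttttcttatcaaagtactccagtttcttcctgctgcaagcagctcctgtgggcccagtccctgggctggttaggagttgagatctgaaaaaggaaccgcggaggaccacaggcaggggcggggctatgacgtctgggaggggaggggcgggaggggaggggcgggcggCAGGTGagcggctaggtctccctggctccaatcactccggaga
Dcdc2: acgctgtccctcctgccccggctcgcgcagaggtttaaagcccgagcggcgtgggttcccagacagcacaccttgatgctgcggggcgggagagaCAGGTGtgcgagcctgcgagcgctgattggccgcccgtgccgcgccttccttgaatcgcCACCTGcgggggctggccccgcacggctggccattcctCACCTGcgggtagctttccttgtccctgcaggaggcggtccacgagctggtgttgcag
Epcam, Cd24 and Slc44a4 each hold 1 such stretch, and Dcdc2 holds 3. Of the 479 counted higher genes with a promoter in the RefSeq table, 133 (27.8%) held it on either strand, against 1715 of 11222 other array genes (15.3%) and 15.7% of all 27457 promoters. Base composition was not matched between these sets, and its part in the difference was not tested. The HNF1 consensus was in 6 of the 479 promoters (1.25%) and 0.241% of the other array genes, and the HNF4 letters CAAAGTCCA in 6 (1.25%) and 0.294%. The grainyhead letters AACCGGTT were in 2 (0.418%) and 0.134%. No searched motif contains another. A match describes these letters in this window only.

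Genes were counted as higher when the difference between the classes, averaged over CR and Tg, was at least 1 (2-fold) and both epithelium-high arrays lay above both epithelium-low arrays within CR and within Tg. Of 20832 probe sets with 1 gene symbol, 727 were counted higher (3.49%), for 634 genes, and 23 were counted lower (0.11%), for 21 genes. Because the rule chose the arrays on this contrast, nothing is read from these shares. By brightest probe set, 596 of 14218 genes (4.19%) were higher and 15 lower. The differences of the 727 had a median of 1.59 and reached 5.62, with 229 at 2 or more, 68 at 3 or more and 13 at 4 or more. The median over all probe sets was −0.06.

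Over the 727 probe sets, the median excess over the epithelium-low arrays of the same group was 1.66 on CR2, 1.48 on CR4, 1.60 on Tg2 and 1.71 on Tg4. The count rule requires both arrays of each group to be high, so these 4 values are a description only. The epithelium-low arrays did not all lie at one level. Tg3 was above Tg1 for 676 of the 727 (93.0%), by a median of 0.48, against 55.2% of all 20832 probe sets. CR1 was above CR3 for 322 (44.3%), against 46.6% of all. For the 68 probe sets with a difference of at least 3, Tg3 carried a median of 11.96% of the rise on the linear scale (quartiles 9.96% and 14.3%). The rise was taken from Tg1 to the mean of Tg2 and Tg4. Tg3 is thus the epithelium-low array that came closest to the other class.

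**Figure D2:**
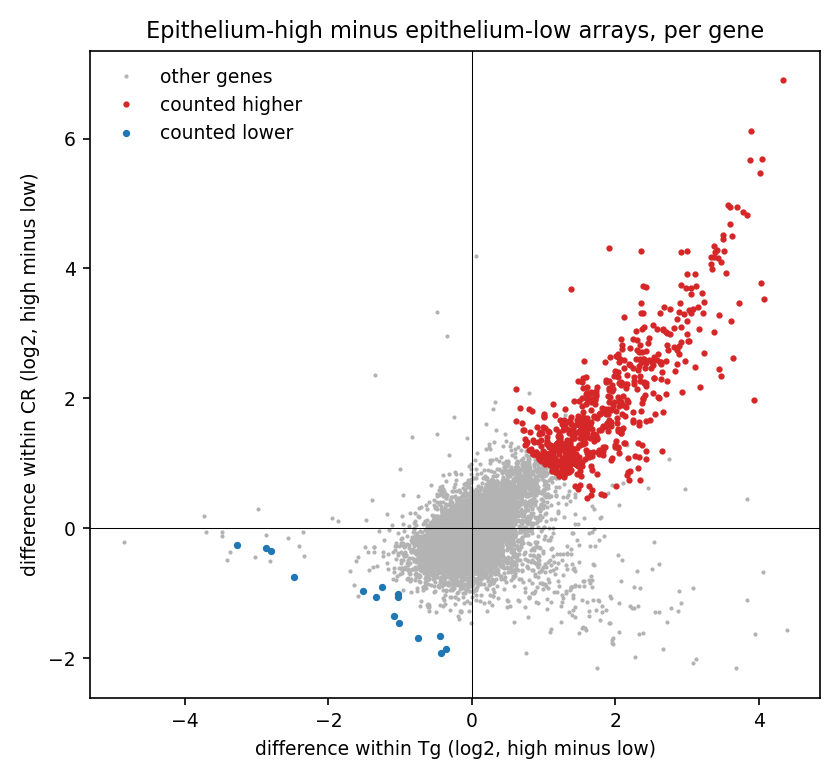
Difference between epithelium-high and epithelium-low arrays within Tg (x axis, log2) and within CR (y axis, log2), 1 point per gene by its brightest probe set, with the 596 genes counted higher in red and the 15 counted lower in blue. Red points run along the diagonal up to Ptgds, and the grey points far along one axis include caput genes of CR4 (Adam7) and pancreatic genes of Tg1 (Amy2a3).

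The largest difference belonged to Ptgds, the lipocalin-type prostaglandin D synthase, a secreted product of the rat epididymis and other tissues. Ptgds stood at 13.80 on CR2, 13.41 on CR4, 13.91 on Tg2 and 14.16 on Tg4, against 6.79 on CR1, 6.61 on CR3, 8.32 on Tg1 and 11.08 on Tg3. The classes did not overlap, with Tg3 highest of the epithelium-low arrays, and the difference was 5.62 (49.1-fold). Cd24, an epithelial surface glycoprotein, stood at 12.66, 12.62, 12.90 and 13.04 on CR2, CR4, Tg2 and Tg4, against 6.68, 6.38, 8.04 and 10.11 on CR1, CR3, Tg1 and Tg3 (difference 5.0). Aldh1a1, which makes retinoic acid from retinaldehyde, stood at 12.74, 12.71, 13.17 and 13.34 on CR2, CR4, Tg2 and Tg4, against 7.11, 6.98, 8.03 and 10.37 on CR1, CR3, Tg1 and Tg3 (difference 4.87). The other leading genes showed the same order, with Tg3 above CR1, CR3 and Tg1. They were Slc44a4 (4.74), a choline-like transporter, Lcn2 (4.33), an iron-siderophore-binding lipocalin, Dcdc2 (4.33), a ciliary microtubule protein, and Cldn2 (4.32) and Cldn10 (4.27), ion-conducting claudins of tight junctions. Lrrc19 (4.27), Lbp (4.01), the lipopolysaccharide-binding protein, Acsbg1 (3.98), a long-chain acyl-CoA synthetase, and Bin2a (3.91) completed the 15 together with Hnf4a and Cdh1.

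Hnf4a, a nuclear receptor of liver, gut and kidney epithelium, stood at 11.66 on CR2, 11.10 on CR4, 11.69 on Tg2 and 11.89 on Tg4, against 6.35 on CR1, 7.04 on CR3, 7.16 on Tg1 and 9.23 on Tg3. The difference was 4.14. Cdh1, E-cadherin of epithelial junctions, differed by 4.07. The 28 measured genes of the epithelial core list had a median difference of 1.57, against −0.04 over all genes. Of these, 20 were counted higher and 0 lower, beside 4.19% of all genes counted higher. They included the claudins Cldn3 (1.17) and Cldn7 (3.05), the proteases and inhibitors Prss8 (2.86) and Spint2 (2.06), the desmosomal Dsp (2.46) and the transcription factors Elf3 (2.49) and Ehf (1.32). The list mean was 9.37 to 9.51 on the epithelium-high arrays and 7.44 to 7.99 on the epithelium-low arrays. Krt7 (−0.33) and Muc1 (0.00) were the 2 members without a positive difference.

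Transport genes formed a second group. Of 15 measured genes of ion and water transport, 7 were counted higher and 0 lower (median 0.99), beside 4.19% of all genes counted higher. Slc9a3, an apical sodium-proton exchanger of absorptive epithelia, stood at 10.18 on CR2, 9.68 on CR4, 10.04 on Tg2 and 10.51 on Tg4, against 5.92 on CR1, 6.49 on CR3, 6.22 on Tg1 and 8.06 on Tg3 (difference 3.43). Aqp9, a channel for water and small solutes, stood at 9.53 on CR2, 11.95 on CR4, 9.38 on Tg2 and 9.58 on Tg4, against 6.94, 7.07, 6.48 and 7.69 on CR1, CR3, Tg1 and Tg3, so CR4 was the highest array by a wide margin. Atp1b1, the sodium pump's beta subunit, differed by 2.58, Cftr, the chloride channel, by 2.36, and Slc12a2, the sodium-potassium-chloride cotransporter, by 2.33. Aqp1, a water channel of efferent duct and endothelium, differed by 0.99 and fell short of the count. Among gene families, 7 of 16 claudins were counted higher, as were 8 of 20 glutathione S-transferases and 26 of 295 solute carriers (8.81%), again beside 4.19% of all genes.

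Genes of the epididymal duct in general were higher in part. Of 14 measured, 5 were counted higher and 0 lower (median 0.65), beside 4.19% of all genes counted higher. These were Ces5a (3.68), a carboxylesterase secreted in the epididymis, Wfdc2 (3.04), a secreted protease-inhibitor-like protein, Cd52 (2.08), a glycopeptide placed on sperm and also carried by lymphocytes, Dcxr (1.83), a sugar reductase, and Sult1e1 (1.41), an estrogen sulfotransferase. Ces5a stood at 11.08 on CR2, 10.71 on CR4, 11.06 on Tg2 and 11.21 on Tg4, against 6.43, 7.37, 6.81 and 8.76 on CR1, CR3, Tg1 and Tg3. Defb1, a beta-defensin found in many epithelia, was the only one of 4 measured beta-defensins counted higher (2.86). Of 14 urogenital duct transcription factors, 4 were counted higher, namely Sall1 (3.35), Pax8 (2.83), Emx2 (2.52) and Tfcp2l1 (2.16). Pax2 differed by 0.82.

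The caput epididymis genes, which mark the first stretch of the duct, were high as a list mean on CR4 and on no other array. Of the 7, Adam7, Cst8, Cst11, Cst12, Ros1 and Eppin had their highest CR or Tg level on CR4, while Rnase12 stood at 6.03 there, against 6.19 on CR1. Adam7, a membrane protein of the caput, stood at 6.25 on CR2, 13.84 on CR4, 6.65 on Tg2 and 6.08 on Tg4, against 6.77 on CR1, 7.39 on CR3, 6.77 on Tg1 and 6.66 on Tg3. One array alone was high, and the other 3 of its class lay near the epithelium-low arrays. Cst11, Cst12 and Cst8, cystatins of the epididymis, were also high on CR4, at 13.32, 12.82 and 13.16, which was 6.09, 3.89 and 3.60 above the next array. Penk, the proenkephalin gene, was at 14.32 there, 3.77 above the next array. Of the cystatins, Cst8 stood at 8.19 to 9.55 on AL1, AL2, CR1 and Tg2, the arrays with spermatid genes. It stood at 5.80 to 7.26 on the other arrays besides CR4. Cst12 stood at 7.39 to 8.93 on those spermatid arrays and 5.87 to 7.37 on the others, while Cst11 stood at 5.10 to 5.77 on them. The part of spermatid RNA in these levels was not tested. In all, 25 probe sets were at least 4-fold higher on CR4 than on any other array. Tg1 had 26 such probe sets, led by Amy2a3 and other pancreatic enzymes, CR3 had 2, and the other 9 arrays had 0. Eppin was the 1 of 7 measured caput genes counted higher (1.54), beside 4.19% of all genes. It stood at 8.79 on CR4 and 6.82 to 6.90 on CR2, Tg2 and Tg4, against 5.31 to 6.64 on the epithelium-low arrays. Epcam and Krt19 chose the arrays and mark epithelium in general, so they do not show that it came from the duct. The epithelium-low arrays were not all without epithelial transcripts, since Tg3 carried part of the rise. Krt19 stood at 8.60 to 10.23 on the epithelium-low arrays but did not follow Epcam there. CR1 had Krt19 at 10.08 and Epcam at 5.78. Mesothelium expresses simple keratins too, and its part in the Krt19 level was not tested.

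Other cell types of the duct were checked by their defining genes. Of 7 measured ciliated-cell genes, 4 were counted higher and 0 lower (median 1.06). Foxj1, the transcription factor of motile cilia, stood at 9.24 on CR2, 9.01 on CR4, 9.28 on Tg2 and 9.15 on Tg4, against 7.12, 7.63, 5.87 and 7.47 on CR1, CR3, Tg1 and Tg3. Tekt1 (2.68), Tekt2 (1.72), both tektins of axonemes, and Rfx3 (1.06), a cilia transcription factor, were the others. Tektins are made by spermatids too, and Tekt1 also stood at 9.34 on AL1 and 10.54 on AL2, the AL arrays with spermatid genes. Spermatid list means were 6.86 on CR2, 7.67 on CR4, 11.58 on Tg2 and 7.02 on Tg4. They were 10.01 on CR1, 6.87 on CR3, 6.35 on Tg1 and 6.97 on Tg3. The part of spermatid RNA in the ciliary difference was not tested. Of 35 cilia and flagella associated genes, 15 were counted higher (42.9%). Over all genes, 4.19% were counted higher.

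Clear-cell genes did not move as a list: 1 of 11 measured was counted higher (Atp6v0a4, a V-ATPase subunit also found in kidney, 2.81), and the median difference was −0.02. Foxi1, the clear-cell transcription factor, differed by 0.10 and Atp6v1b1, a V-ATPase subunit of acid-secreting cells, by −0.02. Of 11 basal-cell genes 0 were counted in either direction (median −0.22), with Krt14 at −0.70 and Col17a1 at −0.64. Among 9 kidney genes, 2 were counted higher, Slc12a3 (1.73) and Umod (1.04), and the kidney list mean was 7.70 on Tg4 and 6.33 to 7.24 on every other array. Seminal vesicle and prostate genes had 1 of 10 counted higher (Sbp, 1.97), and genes of androgen and steroid handling 2 of 10 (Esr1, 1.24, and Hsd11b1, 1.05). Cyp17a1 (1.29) was counted higher and Star (−1.24) lower among 10 genes of Sertoli and Leydig cells. Over all genes, 4.19% were counted higher and 0.1055% lower, and nothing is read from a list with 1 counted gene.

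**Figure D3:**
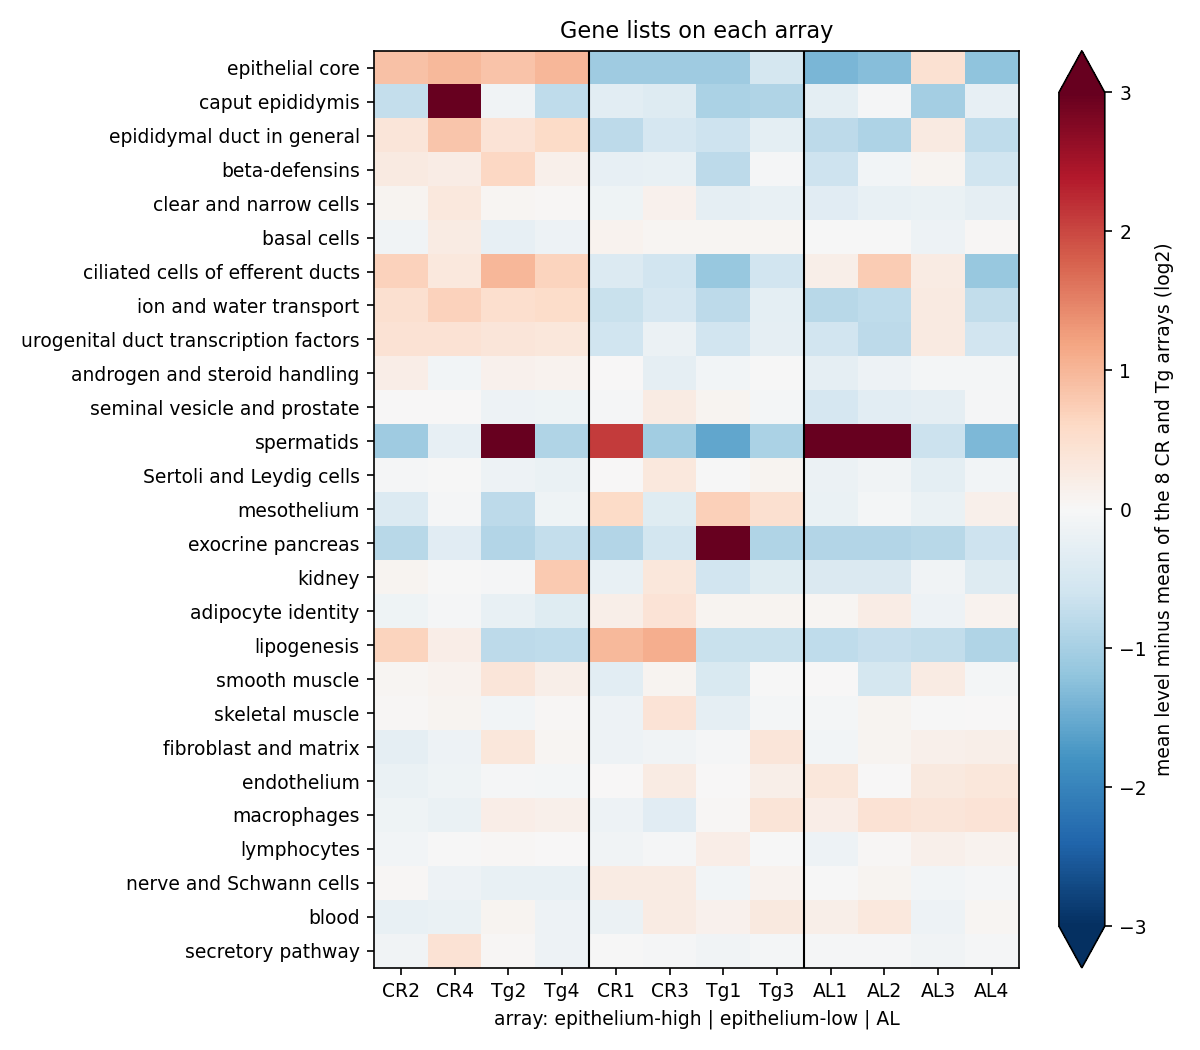
Mean level of each of 27 gene lists (rows) on each array (columns: epithelium-high, epithelium-low, AL), as the log2 difference from the mean of the 8 CR and Tg arrays, with red higher and blue lower. The epithelial core row is red on CR2, CR4, Tg2, Tg4 and AL3, while the caput row is red on CR4 alone, the spermatid row on Tg2, CR1, AL1 and AL2, and the pancreas row on Tg1 alone.

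Adipose genes differed by less than 2-fold between the classes. Of 20 measured genes of adipocyte identity, 0 were counted in either direction, although all 20 had a negative difference (median −0.41, against −0.04 over all genes). For 8 of the 20, among them Lipe, Pnpla2, Pparg, Cebpa, Cidea and Aqp7, all 4 epithelium-high arrays lay below all 4 epithelium-low arrays, against 8.4% of all genes. This was not particular to adipocyte genes. It also held for 3 of 6 nerve and Schwann cell, 3 of 11 endothelial and 3 of 11 basal-cell genes. Pparg, the regulator of fat cell differentiation, stood at 12.11 on CR2, 11.94 on CR4, 11.14 on Tg2 and 11.31 on Tg4, against 12.53, 12.24, 12.41 and 12.23 on CR1, CR3, Tg1 and Tg3, a difference of −0.73. Adipoq, the adiponectin gene, stood at 14.68 on CR2, 14.70 on CR4, 14.80 on Tg2 and 14.59 on Tg4, against 14.68, 14.99, 14.75 and 14.82 on CR1, CR3, Tg1 and Tg3, so the classes overlapped. Pck1, the glyceroneogenic enzyme, differed by −0.65. All 7 mesothelial genes had a negative difference (median −0.83). Msln, the mesothelial surface protein mesothelin, stood at 9.75 on CR2, 10.22 on CR4, 9.13 on Tg2 and 10.08 on Tg4, against 11.32, 9.92, 11.22 and 10.84 on CR1, CR3, Tg1 and Tg3. CR3 lay among the epithelium-high arrays for Msln, and 0 of the 7 genes were counted. Median differences were −0.26 for 11 endothelial, −0.02 for 15 macrophage and −0.09 for 16 fibroblast genes, with 0 counted in each. Cnn1 (1.25), a smooth muscle calponin, was the 1 of 11 smooth muscle genes counted, and Acta1 (2.09) and Cd8a (1.28) were the 1 counted of 10 skeletal muscle and of 9 lymphocyte genes. Over all genes, 4.19% were counted higher. Nerve, blood and secretory pathway lists had 0 counted, with median differences of −0.27, −0.25 and 0.14.

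Of the genes counted lower, Cpa1, Cel, Rnase1l2 and the elastase Cela3b had their highest level on Tg1, the array with the other pancreatic genes. Cpa1 also stood at 9.61 to 10.36 on the AL arrays, against 7.04 to 8.39 on the CR and Tg arrays other than Tg1. Rnase1l2 also stood at 10.56 on AL2 and 10.04 on Tg3. Cel, a pancreatic lipase, stood at 12.31 on Tg1 and 6.72 to 7.28 on the other 7 CR and Tg arrays. Star, which delivers cholesterol to mitochondria for steroid synthesis, stood at 8.13 on CR2, 8.18 on CR4, 7.22 on Tg2 and 7.58 on Tg4, against 9.11 on CR1, 9.14 on CR3, 8.80 on Tg1 and 9.03 on Tg3. These levels did not overlap, with epithelium-low arrays within 8.80 to 9.14. Itga1, a collagen-binding integrin (−1.22), Slc36a2, an amino acid transporter of fat and kidney (−1.20), Pla2g2a, a secreted phospholipase (−1.08), and Elovl6, a fatty acid elongase (−1.05), were the other named genes.

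The AL arrays, which the rule did not use, showed the same genes on 1 array. AL3 was the highest AL array for 642 of the 727 probe sets (88.3%), against 30.5% of all probe sets. AL1 was the highest for 3 (14.3% of all), AL2 for 79 (21.9% of all) and AL4 for 3 (33.3% of all). AL3 was at least 1 above every other AL array for 396 of the 727 (54.5%), against 2.1% of all. The same held on AL1 for 0 (0.048% of all), on AL2 for 24 (1.19% of all) and on AL4 for 0 (0.0528% of all). Epcam stood at 11.48 on AL3, against 6.57 on AL1, 6.88 on AL2 and 6.06 on AL4. Ptgds was at 13.37 on AL3, against 6.18, 6.41 and 6.76 on AL1, AL2 and AL4. The median of AL3 minus the mean of the other AL arrays was 1.34 over the 727 and 0.00 over all. For the 68 probe sets with a difference of at least 3, AL3 carried a median of 68.8% of the rise (quartiles 60.8% and 75.5%). Here the rise was taken, on the linear scale, from the mean of the other AL arrays to the mean of CR2, CR4, Tg2 and Tg4. It is therefore not the rise used for Tg3. The caput list was at 5.91 on AL3, the lowest of all arrays. The spermatid list averaged 12.43 on AL2, with its 79 probe sets, and 11.24 on AL1, with its 3. The part of spermatid RNA in these probe sets was not tested.

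**Figure D4:**
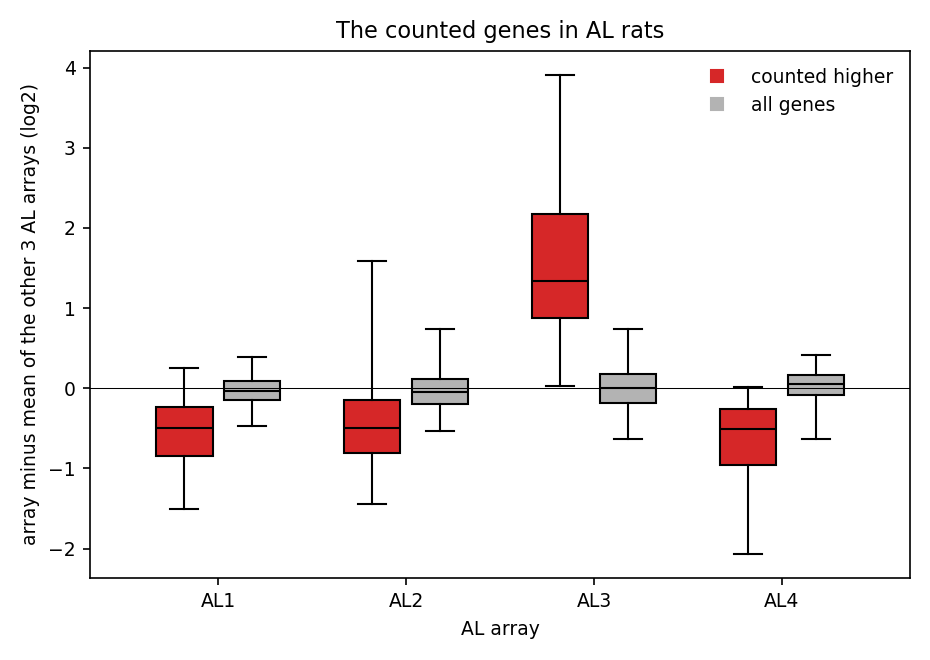
Each AL array minus the mean of the other 3 AL arrays (y axis, log2), as boxes over the 596 genes counted higher (red, left) and all 14218 genes (grey, right), with medians, quartiles and whiskers at the 5th and 95th percentiles. The red box of AL3 lies above 0 and those of AL1, AL2 and AL4 below it, while the grey boxes centre near 0.

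With the class labels applied to AL, replicate numbers did not carry over. Replicates 2 and 4 against 1 and 3 in AL gave 0 of 20832 probe sets at an adjusted p under 0.05 (limma, Benjamini-Hochberg), with 952 at an unadjusted p under 0.05. The median difference of the 727 was −0.67, the opposite sign, with AL3 among replicates 1 and 3. Without AL1, 372 probe sets passed, 359 of them lower in AL2 and AL4, against AL3 alone.

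The size of the epithelial difference was compared between CR and Tg by the product of group and class, fitted on the 8 arrays with limma. It passed an adjusted p of 0.05 for 0 of 20832 probe sets (928 at an unadjusted p under 0.05). The fit reads the levels that chose the arrays, so it is no independent test, and the values of single genes are given as a description. For Epcam the difference was 5.67 within CR and 3.89 within Tg, and the gap between them was 1.78. For Ptgds it was 6.90 within CR and 4.34 within Tg, a gap of 2.56. For both genes Tg1 and Tg3 lay above CR1 and CR3. Without Tg4, 47 probe sets passed, and without Tg3, 22.

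CR was then set against Tg with the epithelial class as a term. Each class holds 2 arrays of each group, so this comparison does not use the contrast that chose the arrays, but the term itself was chosen with these levels in view. Of 17 lipogenic genes 13 passed as higher in CR. Of 15 macrophage genes 4 passed as lower, and 0 did with the replicate block or with the group alone. In all 648 of 20832 probe sets passed an adjusted p of 0.05 (3.11%; limma, Benjamini-Hochberg), 383 higher (1.84%) and 265 lower (1.27%) in CR. With the group alone and no class term, 14 passed (0.0672%), all 14 among the 648. With the replicate number as a block, 70 passed, 62 higher and 8 lower in CR, all 70 among the 648. The median standard error over all probe sets was 0.109 with the class term and 0.140 without it. Over the 727 counted higher, it was 0.187 with the term and 0.593 without it. The 727 were counted for their class difference, so this drop follows from that choice and nothing is read from it. The 648 became 80 without Tg3, 119 without Tg1, 132 without CR2, 135 without CR1, 183 without Tg4, 234 without Tg2 and 359 without CR3.

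The share of the epithelial genes that passed between CR and Tg was not above that of all probe sets. The median CR minus Tg difference of the 727 was −0.16, against 0.02 over all. Their median standard error was larger, 0.187 against 0.109, so few calls do not show that the groups are alike. Of the 727, 1 was higher (0.138%, against 1.84% of all) and 7 were lower in CR (0.963%, against 1.27% of all). The 1 was LOC102553190, which did not pass with the replicate block (limma adjusted p = 0.0597). The 7 were Cwc27, Plscr2, Cxcl14, Aurkb, Dmxl2, Iah1 and Ccdc8, with differences from −0.39 to −0.65, and none passed with the replicate block (limma adjusted p = 0.0752 to 0.112). For Epcam the CR minus Tg difference was −1.14 ± 0.52 (SE, limma adjusted p = 0.235), and for Krt19 it was −0.52 ± 0.29 (limma adjusted p = 0.314). Of the 23 counted lower, 5 probe sets were higher in CR, for Elovl6 (2 probe sets), Slc36a2, Star and Rd3l. With the block only the 2 of Elovl6 passed, and Star (limma adjusted p = 0.120) and Rd3l (0.117) did not. The brightest probe set of Star did not pass with the class term either (limma adjusted p = 0.0898). Slc36a2 averaged 9.95 ± 0.63 in CR and 9.12 ± 0.82 in Tg (SD, n = 4 each), with limma adjusted p = 0.0370 with the class term and 0.0616 with the block.

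**Figure D5:**
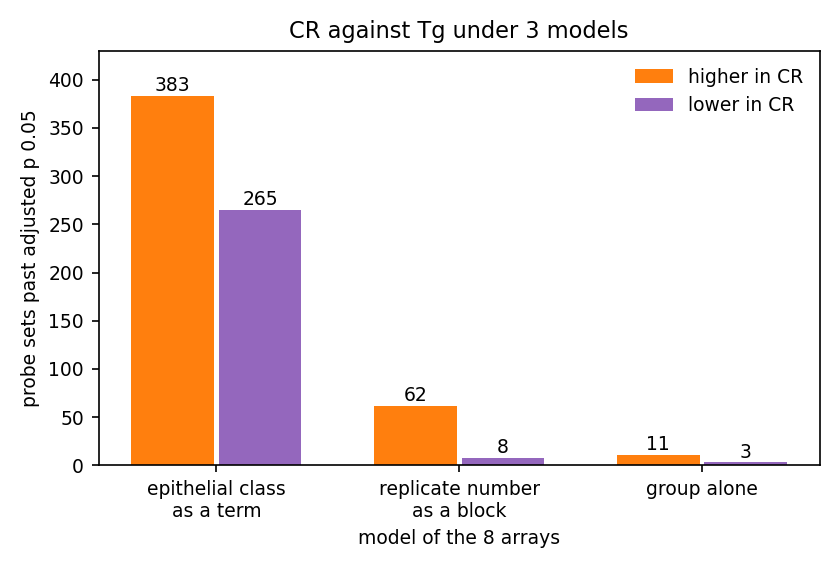
Number of probe sets past an adjusted p of 0.05 for CR against Tg (y axis) with the epithelial class as a term, the replicate number as a block, or the group alone, on the same 8 arrays, with bars for probe sets higher in CR (left of each pair) and lower in CR (right). The totals are 648, 70 and 14.

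Of the 17 lipogenic genes, 13 were higher and 0 lower in CR with the class term, against 1.88% of all genes higher, 7 with the block and 3 with the group alone. Their median difference was 1.33, against 0.00 over all genes. Fasn, the fatty acid synthase, stood at 14.64, 14.58, 15.04 and 14.20 on CR1 to CR4, against 12.36, 12.10, 11.97 and 12.02 on Tg1 to Tg4. The groups did not overlap, and the difference was 2.50 ± 0.15 (SE; limma adjusted p = 0.00114, or 0.0121 with the block). Elovl6 stood at 12.14, 11.20, 12.36 and 9.96 on CR1 to CR4, against 8.81, 8.20, 8.56 and 8.29 on Tg1 to Tg4. Its level was lower on the epithelium-high arrays within both groups, and the CR minus Tg difference was 2.95 ± 0.32 (SE; limma adjusted p = 0.00581 with the class term, 0.0341 with the block and 0.0694 with the group alone). Pnpla3, a lipid-droplet lipase and transacylase, differed by 3.16, Angptl8, a feeding-induced lipase regulator, by 3.04, and Scd, the stearoyl-CoA desaturase, by 2.59. Scd did not pass with the block (limma adjusted p = 0.0830).

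Lower in CR were Angptl4, an inhibitor of lipoprotein lipase (−2.04 ± 0.28; limma adjusted p = 0.0168, or 0.0640 with the block), and Siglec10, a sialic acid receptor of leukocytes (−1.35 ± 0.13; limma adjusted p = 0.00428, or 0.0151 with the block). Pdk4, which brakes pyruvate oxidation, differed by −1.25, Cd5l, a macrophage product, by −1.22, and Apeg3 by −1.19. The 4 of 15 macrophage genes lower in CR with the class term stand against 1.45% of all genes lower, and the list's median was −0.43. Of 20 adipocyte identity genes, 4 were higher in CR with the class term, against 1.88% of all genes, 1 with the block and 0 with the group alone (median 0.20).

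Against AL, with 1 mean per group, the epithelial genes did not pass in either group. These fits have no class term, so the class difference for which the 727 were counted adds to their spread. Their lack of calls does not show that the groups are alike. CR against AL gave 231 probe sets (1.11%), 103 higher (0.494%) and 128 lower (0.614%) in CR. The balance turned with other settings, to 118 higher and 87 lower with quantile normalization, 61 and 44 with centring, 63 and 48 with no trend, and 142 and 83 without CR4. Of the 231, 0 were among the 727 counted higher, whose median difference was 0.53. The 231 became 29 without AL4, 33 without CR2, 47 without CR1, 60 without AL3, 69 without CR3, 72 without AL1 and 150 without Tg4. Tg against AL gave 0 (1054 at an unadjusted p under 0.05), with a median of 0.63 over the 727. In CR and in Tg 2 of 4 arrays were epithelium-high, and in AL the array AL3 alone was high. For Epcam the difference was 1.26 ± 1.73 for CR against AL (SE, limma adjusted p = 0.728) and 2.41 ± 1.73 for Tg against AL (limma adjusted p = 0.879). Both comparisons share the AL arrays.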

How the data were processed

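The series matrix deposited by the authors holds a linear intensity per probe set, and log2 of it was analysed for 12 arrays. For single probes the authors deposited a score, the log10 of the brightness above background, centred and scaled within the array; undoing this with the deposited parameters gave whole numbers, within 0.01, for 100% of probes under 5000 units on each array. The software and the summary method were not given in the sources used here. Over probe sets, the log10 of the matrix followed the mean score (r 0.987 to 0.995), which gives its direction. Of 31099 probe sets, 20832 have 1 symbol in the platform annotation, 436 several and 9831 none, and 20764 matched RefSeq genes of GRCr8 by gene identifier.

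The members, lists, tests and named genes were chosen with earlier results of these data known. The epithelial contrast is the mean of the differences within CR and within Tg, with no test. Other comparisons used limma 3.58.1 in R 4.3.3 (lmFit, eBayes with trend, two-sided, Benjamini-Hochberg over all 20832, threshold 0.05), checked on simulated data; tables and figures used Python 3.11.15. In fits with the group alone, p-values measure the spread among the 4 arrays of each group. With the class term or the replicate block, they measure the spread left after that term is taken out. For the product of group and class, and for the replicate contrast in AL, the spread is that between 2 arrays. These 2 share a group and a class label, and their spread is pooled over the groups fitted. A gene is its brightest probe set. Named are the 15 genes with the largest difference among those higher and up to 10 among those lower, with a mean above the median of all probe sets in the higher class; up to 6 counted members of each list, or 2 where none was counted; up to 5 called genes in each direction; and a fixed set of markers. Other genes named from lists or single arrays were chosen after their values were seen.

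Deviations of same-numbered CR and Tg arrays from their group means correlated at 0.427, 0.274, 0.396 and 0.546, each above 0.1, so the block of replicate numbers is given beside CR against Tg. The 2 classes also follow the numbers, and only 2 of 4 CR arrays correlated best with their own number. CR and AL, and Tg and AL, were not paired. Alternatives were median polish of the z-scores, quantile normalization, centring, a floor of 32, a filter at the 25th percentile, no trend, other models and leaving out arrays. The number of arrays limits the precision.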

Additional observations from a re-analysis of the deposited data

Results flagged for a closer look

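Within each group of 4, an array was picked out when its gap to the nearest other array took up more of the group's whole range than Dixon's critical value for 4 arrays allows. Chance picks out about 1 in 20 groups. Among 81 tests of lists 11 were picked out, and among 318 tests of genes 36. Of the 36, 26 were on AL3. Many of the genes were named from these data and rise together, so the tests are neither independent nor unselected. Nothing is read from these counts against the 1 in 20.

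AL3 had the highest AL mean of the epithelial core list (8.98), of the list of the epididymal duct in general (9.82) and of the ion and water transport list (8.97), and the lowest of the secretory pathway list (10.03). The 26 genes for which AL3 stood above the other AL arrays were, by level, Ptgds (13.37), Lcn2 (12.47), Aldh1a1 (12.32), Cd24 (12.26), Atp1b1 (12.17), Lbp (11.98), Slc12a2 (11.87), Bin2a (11.76), Epcam (11.48) and Slc44a4 (11.38). They went on with Hnf4a (11.07), Wfdc2 (11.04), Dcdc2 (10.77), Ces5a (10.67), Cldn10 (10.42), Dcxr (10.01), Pax8 (9.97), Cldn2 (9.96), Perp (9.76), Slc9a3 (9.44), Prss8 (9.41), Lrrc19 (9.30), Atp6v0a4 (9.29), Sall1 (8.69), Cd52 (8.27) and Slc12a3 (8.22).

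CR4 had the highest CR mean of the caput epididymis list (11.06) and of the secretory pathway list (10.56), the highest CR level of Adam7 (13.84) and the lowest of Apeg3 (10.40). Tg1 had the highest Tg mean of the exocrine pancreas list (12.63) and the highest Tg level of Cpa1 (12.38), Cel (12.31) and Cela3b (12.14). Tg2 had the highest Tg mean of the spermatid list (11.58) and level of Sec61b (11.77).

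On CR3 the means of the Sertoli and Leydig list (7.58) and of the blood list (10.67) and the level of Adipoq (14.99) were the highest of the CR arrays. CR1 had the lowest CR mean of the smooth muscle list (9.04) and the highest CR level of Bnc1 (7.91), a mesothelial transcription factor. Eppin was lowest of the AL arrays on AL4 (5.21), and Adam7 lowest of the Tg arrays on Tg4 (6.08).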

How the results depend on the processing

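The 727 probe sets counted higher became 229 when the difference had to be at least 2, 669 to 787 with 1 array left out, and 705 without CR4 and Tg1, an alternative chosen after seeing the data. The 23 counted lower became 11 with median polish of the z-scores, 14 with the filter at the 25th percentile, 0 at a difference of 2, 184 in CR alone, 71 in Tg alone, 18 to 52 with 1 array left out and 33 without CR4 and Tg1. For CR against Tg, the 648 became 258 without the trend, 208 when fitted on all 12 arrays, 14 with no class term, 70 with the replicate block and 80 (without Tg3) to 454 (without CR4) with 1 array left out. For CR against AL, the 231 became 105 with centring, 111 without the trend, 115 with the replicate block and 29 (without AL4) to 225 with 1 array left out. The difference of the epithelial contrast between CR and Tg gave 0 to 47 with 1 array left out, replicates 2 and 4 against 1 and 3 in AL gave 0 to 372, and Tg against AL gave 2 with median polish and 0 with the replicate block. The cause was not tested in these cases. With an array left out, a cell of 1 array is assumed to vary like the others. No named gene with a called difference changed its sign. The balance of CR against AL calls turned, with 44.6% higher in CR as reported and 57.6% with quantile normalization, 58.1% with centring, 56.8% with no trend and 63.1% without CR4. The share higher in CR among CR against Tg calls was 59.1%, and 88.6% with the replicate block. CR and AL, and Tg and AL, share only replicate numbers. Signal over background limits dim genes, since the files hold no detection calls.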

Other observations

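Some genes stood at least 4-fold higher on 1 array than on any other. On CR4, Teddm1a was at 13.85, 5.79 above the next array, and Tmem150c at 12.29, 2.79 above the next. On Tg1, the trypsinogens Prss3b and Prss1 were at 13.68 and 13.89, 6.71 and 6.57 above the next array, and the lipase gene Pnlip at 13.02, 6.03 above the next. On CR3, Cdh8, a cadherin, was at 8.26, 2.48 above the next, and CR3 is the array with the most blank probes. Prm1, the sperm nuclear protamine, stood at 14.97 on Tg2, 13.22 on CR1, 14.68 on AL1 and 15.17 on AL2. It was at 6.50 on Tg1, the lowest array. These genes were chosen after their values were seen.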
